A study of Rattus norvegicus with 12 samples.

Results

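Cytosolic ribosomal proteins were followed in rat liver across 3 diets. They were chosen by name from the probe sets, which are groups of short array probes aimed at a transcript. A probe set was taken when its only gene symbol was written like that of a large (Rpl, Rplp) or small (Rps, Rpsa) subunit protein. The Rps6k kinases were left out. This gave 57 of the 31099 probe sets on the array, for 50 symbols, with 38 probe sets for the large subunit and 19 for the small. Of the 57, 8 do not have a core ribosomal name, for example those of Rpl7l1 and Rps4x-ps1. The animals were male Sprague Dawley (SD) rats aged 9 weeks, and diet was the only treatment the labels give. The control group ate the purified AIN-93G diet, the low group ate it with 0.1% wakame powder and the high group with 1% wakame powder, for 28 days in each case. Wakame, a brown alga, is eaten as a vegetable. Each diet was represented by 4 arrays of 4 different rats, out of 6 rats fed that diet in cages of 3, so an effect of the diet and one of the cage cannot be told apart. How these 4 were picked is not given. The liver label was checked on the apolipoproteins Apob and Apoa1, made by hepatocytes, which averaged 13.36 and 12.92 log2, beside a median of 6.59 over all values.

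The cytosolic ribosome is built from a large subunit, which joins amino acids, and a small subunit, which reads the messenger RNA. Its proteins are made in matched amounts, and their messenger RNAs share a start rich in pyrimidines, the terminal oligopyrimidine (TOP) tract, through which the mTOR pathway controls their translation. Hepatocytes make most plasma proteins and so hold many ribosomes, whose number is known to respond to feeding and fasting.

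The start of the gene is shown for 9 members: the 8 whose values are given in full further on, and Rps23. Within 20 bases on either side of the start, Rps23 has the longest pyrimidine run among the measured genes with a promoter entry. Bases farther off were not counted. Each line holds 30 bases, 15 before and 15 from the annotated start onward, 5′ to 3′ on the gene's strand, from RefSeq on the rat assembly GRCr8. Capitals mark the longest unbroken run of C and T within 20 bases on either side of the start, as far as it lies in the window. In Rps24, Rpl22, Rpl5, Rpl3 and Rpl11 the annotated start used here differs from the one in the RefSeq gene record. Members of both subunits are included so that the runs can be compared.
Rps24, chr16:96502-96531, plus strand: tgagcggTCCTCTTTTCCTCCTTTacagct
Rps23, chr2:23814502-23814531, plus strand: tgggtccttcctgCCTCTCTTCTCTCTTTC
Rps6, chr5:106420526-106420555, minus strand: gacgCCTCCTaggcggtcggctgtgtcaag
Rps3a, chr2:173827028-173827057, minus strand: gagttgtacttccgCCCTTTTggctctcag
Rps4y2, chr4:183000898-183000927, plus strand: gcgcgcagCTCTCCTCactcgcttgtgctc
Rpl22, chr5:168117946-168117975, plus strand: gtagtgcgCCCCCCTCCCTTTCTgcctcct
Rpl5, chr14:1995211-1995240, minus strand: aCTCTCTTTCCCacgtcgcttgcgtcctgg
Rpl3, chr7:113507976-113508005, minus strand: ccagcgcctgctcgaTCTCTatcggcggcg
Rpl11, chr5:153560788-153560817, minus strand: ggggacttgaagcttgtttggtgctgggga

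A run of at least 8 pyrimidines lay within 20 bases of the start in 14 of the 22 measured genes with a promoter entry (63.6%), and in 28 of the 43 genes among all members (65.1%). Over all 33469 RefSeq promoters of the same length the share was 15.5%. The run covered the start itself in 10 of the 14, among them Rps24 (17 bases) and Rps23 (21 bases). In Rpl11 no run was longer than 3 bases, and several were of that length, so none is in capitals. In Rps6 the longest was 6 bases. In the 250 bases before the start, on both strands, the ETS motif CCGGAAG stood in 3 of 22 promoters (13.6%, against 7.27% of all promoters), the letters AAGATGG, found in YY1 sites, in 1 (4.55% against 4.62%) and TATAAA in 3 (13.6% against 12.9%). These are matches of letters only. The 14 genes with a run had a median difference between 1% wakame and control of −0.092 log2 in the array data, and the 8 without one of −0.149, with overlapping ranges. Besides the genes named above, the start used also differs from the RefSeq gene record in Rpl6, Rpl27a, Rpl34, Rps9 and Rps15a. How far the run lengths, counts and medians depend on the start used was not tested.

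Only part of the members could be followed between diets. Most deposited values hardly vary: a probe set is called unmeasured where the standard deviation (SD) across arrays was 0.01 log2 or less, and how such constant values arose is not known. Of the 57 members, 25 were measured (43.9%), standing for 24 genes, beside 10.4% of all 31042 probe sets that are not the manufacturer's controls. The limit fell in a wide gap: the least variable measured member was a second probe set of Rpl3 with an SD of 0.036, and the most variable unmeasured one was Rpl41 with 0.0023. The 18 measured probe sets of the large subunit were those of Rpl3 (2 probe sets), Rpl4, Rpl5, Rpl6, Rpl7, Rpl7a, Rpl11, Rpl12, Rpl22, Rpl23, Rpl24, Rpl26, Rpl27, Rpl27a, Rpl34, Rpl37a and Rplp0. The 7 of the small subunit were those of Rps3a, Rps4y2, Rps6, Rps9, Rps15a, Rps23 and Rps24. Another 26 symbols had no measured probe set. They were Rpl13a, Rpl14, Rpl18, Rpl19, Rpl21, Rpl23a, Rpl26l1, Rpl28, Rpl30, Rpl35, Rpl35a, Rpl37-ps2, Rpl39, Rpl39l1, Rpl3l, Rpl41, Rpl7l1, Rps13, Rps15, Rps16, Rps27l, Rps28, Rps29, Rps3, Rps4x-ps1 and Rpsa. Their signals ran from 5.68 to 12.54 log2, so both dim and bright members were among them, and nothing is known here of their response to the diets.

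The measured members varied little between arrays. Their SD over the 12 arrays had a median of 0.094 log2 and a maximum of 0.200, whereas 54.5% of all 3240 measured probe sets had an SD above that maximum. Array control 1 stood apart: it was the highest of the 12 arrays in 20 of the 25 probe sets. The mean over the 25 was 11.61 log2 on control 1, and 11.38, 11.38 and 11.49 on control 2, 3 and 4. It was 11.40, 11.50, 11.47 and 11.43 on the arrays of 0.1% wakame, and 11.34, 11.35, 11.33 and 11.40 on those of 1% wakame. The arrays of 1% wakame were thus close together and low, and the highest of them lay above control 2 and control 3. The median over all measured probe sets, in contrast, was 8.96 to 9.04 on control arrays, 8.96 to 9.00 with 0.1% and 8.97 to 8.99 with 1% wakame. Signal near the 3-prime end of Gapdh exceeded that near its 5-prime end, a gap that widens as RNA degrades, by 1.05 ± 0.014 log2 in control, 1.08 ± 0.100 with 0.1% and 1.21 ± 0.159 with 1% wakame (SD, n = 4). For Actb the gap was 2.31 ± 0.131, 2.25 ± 0.148 and 2.38 ± 0.068. The part of these gaps in the diet differences was not tested. In whole liver, less RNA per cell and fewer cells of a type cannot be told apart.

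**Figure D1:**
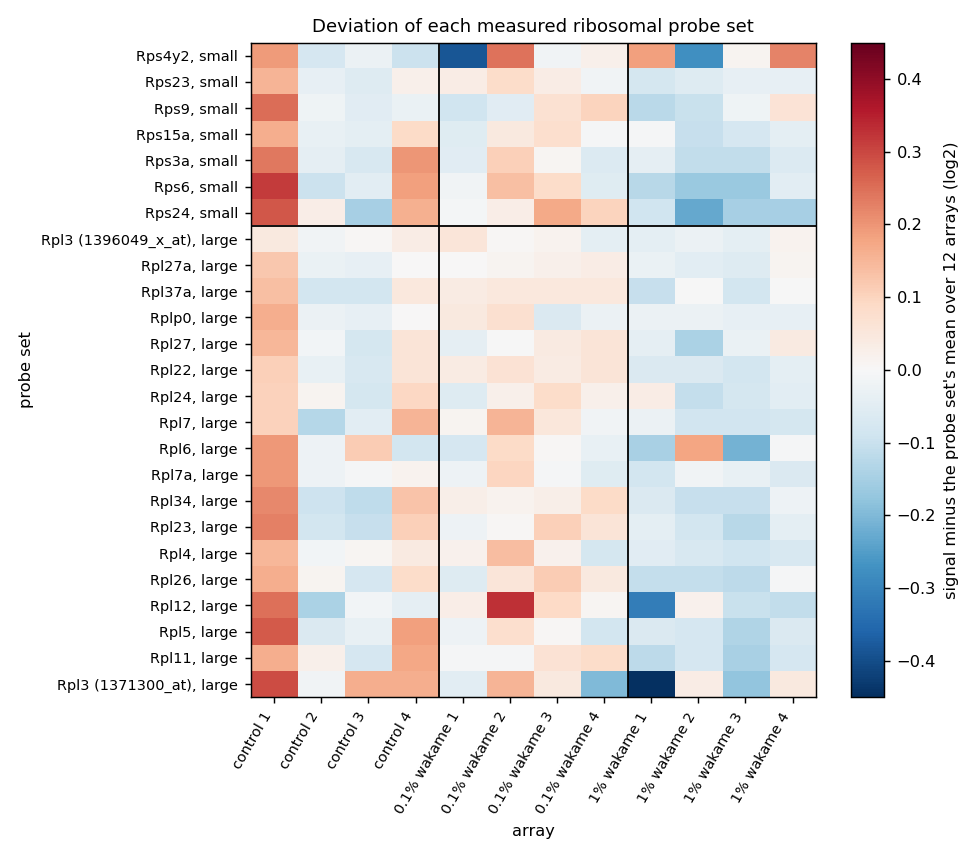
Deviation of the 25 measured ribosomal probe sets (rows, small subunit above the line, large below) from their own mean over 12 arrays (columns, by diet), in log2. Control 1 is red in nearly every row, and most rows are pale to blue on the 4 arrays of 1% wakame.

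The larger dose was first set against the control diet. Of the 25 measured ribosomal probe sets, 24 lay lower with 1% wakame, including all 18 of the large subunit and 6 of 7 of the small, where 55.1% of all measured probe sets lay lower. The differences were small, with a median of −0.095 log2 (−6.40% on the linear scale) and a range from −0.288 to 0.036. The median over all measured probe sets was −0.020. With limma, 0 of the 25 passed an adjusted p of 0.05, which 1.67% of all measured probe sets did, and the lowest adjusted p among them was 0.154. At an unadjusted p under 0.05, 6 lay lower (Rpl11, Rps24, Rpl3, Rps6, Rpl5 and Rpl26) and 0 higher, against 10.1% of all measured probe sets lower. In 2 of 25, Rpl4 and Rpl5, all arrays of 1% wakame lay below all control arrays, against 6.05% of all measured probe sets that did so. Without control 1 the median was −0.052 and 24 lay lower, but 1 had an unadjusted p under 0.05. That count was 2 without control 4, high 1 or high 3, and 3 without high 2. It was 5 without high 4 and 8 without control 2 or control 3. The lowest adjusted p with limma was 0.0623, without control 3. With quantile normalization the count was 6, with only the 2 diets in the fit 3 and with the replicate block 2. With each array centred on its median 24 also lay lower, with a median of −0.073, and 1 member had an unadjusted p under 0.05.

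**Figure D2:**
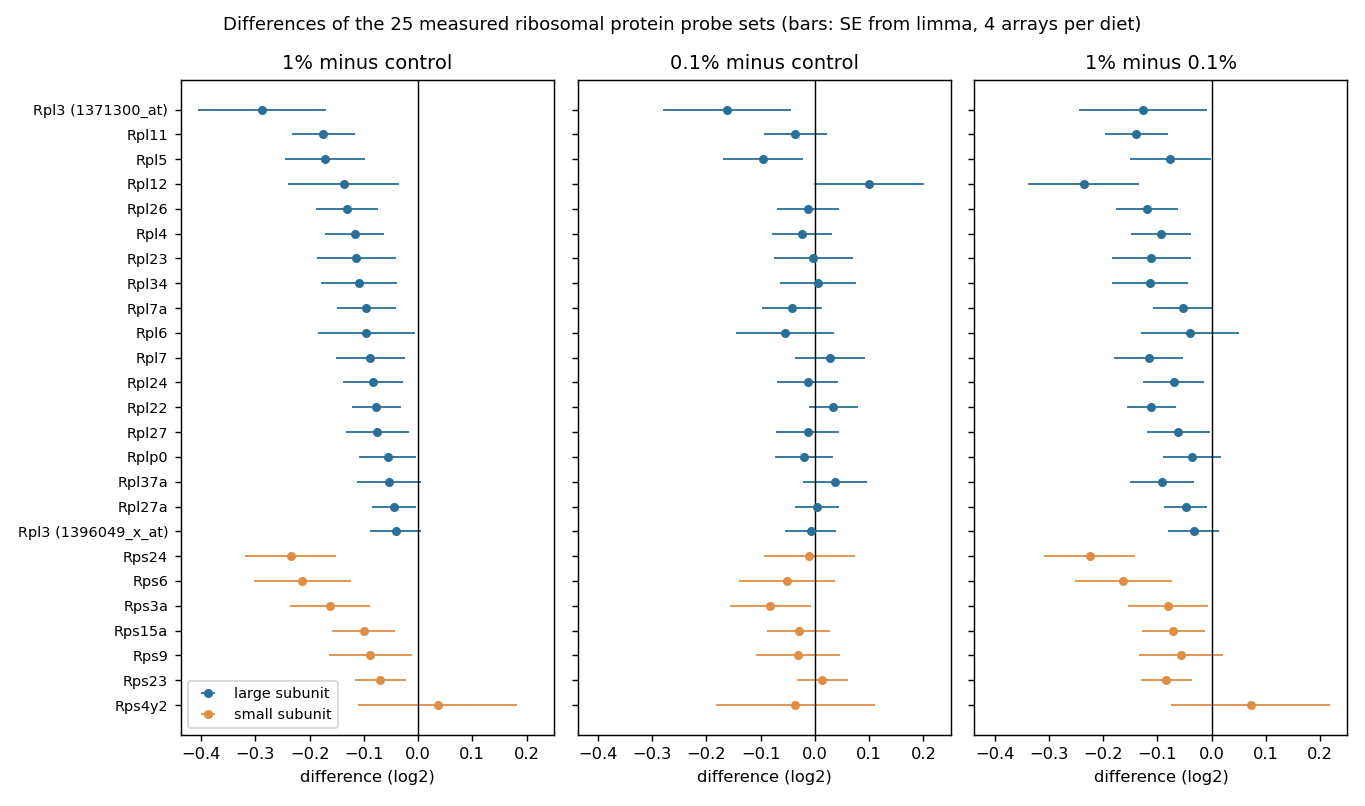
Difference of mean log2 signal for the 25 measured ribosomal probe sets in the 3 comparisons, with the standard error from limma (n = 4 arrays per diet), blue for the large and orange for the small subunit. Nearly all points lie left of 0 for 1% against control and 1% against 0.1%, and the points for 0.1% against control lie on both sides, from −0.162 to 0.100.

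Among large subunit proteins, Rpl11 and Rpl5 carry the 5S ribosomal RNA and also bind the p53 regulator Mdm2. Rpl11 was at 11.85, 11.71, 11.61 and 11.86 log2 in control, at 11.68, 11.68, 11.75 and 11.77 with 0.1% and at 11.57, 11.61, 11.54 and 11.61 with 1% wakame. Control 3 lay as low as the highest arrays of 1% wakame, which were all below those of 0.1%. The difference between 1% and control was −0.175 ± 0.058 (SE, n = 4 per diet, limma adjusted p = 0.154). Rpl5 was at 12.24, 11.90, 11.93 and 12.15 in control, at 11.94, 12.04, 11.97 and 11.88 with 0.1% and at 11.90, 11.89, 11.83 and 11.90 with 1%. Control 1 and control 4 were high, and the gap between control 2 and the highest array of 1% wakame was 0.0015 log2, so the separation of the diets is nominal. The difference was −0.172 ± 0.074 (adjusted p = 0.249), and −0.110 without control 1.

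Rpl3 lies next to the site where peptide bonds form. Its probe set of the plain _at type was at 12.00, 11.69, 11.87 and 11.87 in control, at 11.66, 11.86, 11.75 and 11.51 with 0.1% and at 11.26, 11.74, 11.53 and 11.75 with 1%. It was spread widely within each diet, lowest on high 1, and the diets overlapped. Its difference of −0.288 ± 0.118 (adjusted p = 0.235) was the largest of the 25 with all arrays, and −0.186 without high 1. The second probe set of the gene, of the _x_at type, whose probes can also match other transcripts, differed by −0.041 ± 0.047, so the size for Rpl3 depended on the probe set. Rpl22, an RNA-binding protein on the outer face of the subunit, was at 11.67, 11.53, 11.49 and 11.62 in control, 11.60, 11.63, 11.60 and 11.62 with 0.1% and 11.50, 11.50, 11.48 and 11.52 with 1% wakame. Control 2 and 3 lay near the arrays of 1% wakame and control 1 and 4 near or above those of 0.1%, and its difference between 1% and control was −0.077 ± 0.045 (adjusted p = 0.388), and −0.046 without control 1.

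The other large subunit members were at −0.137 to −0.044. Rpl26, which sits near the exit of the peptide tunnel, was at −0.131 ± 0.057 (adjusted p = 0.257), and Rpl4, which lines that tunnel, at −0.117 ± 0.055 (0.283). Rpl12 and Rplp0, of the stalk where translation factors bind, were at −0.137 ± 0.102 and −0.056 ± 0.053. Rpl23 and Rpl24, which face the small subunit, were at −0.114 and −0.083. Rpl34, Rpl7a, Rpl6, Rpl7, Rpl27, Rpl37a and Rpl27a ranged from −0.108 to −0.044, all with adjusted p of 0.384 or higher.

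Among small subunit proteins, Rps24, needed for processing of the ribosomal RNA precursor, was at 11.88, 11.63, 11.45 and 11.76 in control, at 11.59, 11.63, 11.77 and 11.70 with 0.1% and at 11.51, 11.37, 11.45 and 11.45 with 1% wakame. The 1% arrays were low as a group, but control 3 lay among them. The difference from control was −0.235 ± 0.084 (adjusted p = 0.181). Rps6, the protein that S6 kinase phosphorylates downstream of mTOR, was at 12.35, 11.94, 11.99 and 12.22 in control, at 12.02, 12.17, 12.12 and 11.98 with 0.1% and at 11.91, 11.87, 11.87 and 11.99 with 1%. Control 1 and control 4 were again the high ones, and high 4 reached the level of control 3. The difference was −0.213 ± 0.089 (adjusted p = 0.238), and −0.137 without control 1.

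Rps3a, on the platform of the small subunit, was at 12.69, 12.41, 12.38 and 12.65 in control, at 12.40, 12.56, 12.46 and 12.39 with 0.1% and at 12.41, 12.34, 12.34 and 12.39 with 1%. It repeated the pattern of Rps6, with control 1 and 4 above the rest, and differed by −0.162 ± 0.074 (adjusted p = 0.276). Rps15a, Rps9 (near the messenger RNA entry) and Rps23 (at the decoding centre) were at −0.100, −0.088 and −0.070. Rps4y2, a relative of Rps4x, was the 1 member that lay higher, by 0.036 ± 0.147 (adjusted p = 0.940). It was also the dimmest measured member, with a mean of 7.24 log2 beside a median of 6.59 over all values. Its values were 7.44, 7.17, 7.22 and 7.15 in control, 6.86, 7.49, 7.23 and 7.27 with 0.1% and 7.43, 6.97, 7.26 and 7.47 with 1%, so its spread within a diet exceeded any difference, and its sign turned without high 1 or high 4 (−0.012 and −0.026).

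**Figure D3:**
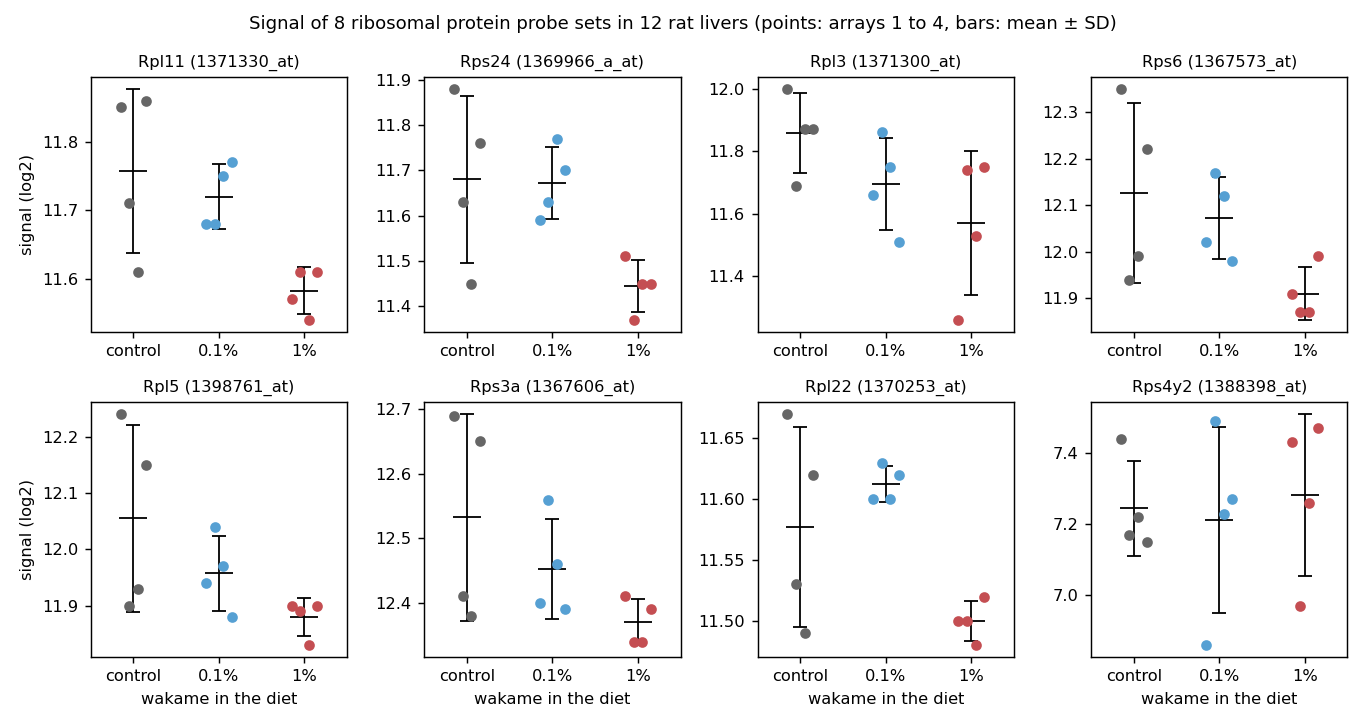
Log2 signal of 8 ribosomal probe sets on each of the 12 arrays (points, arrays 1 to 4 of a diet from left to right), with mean ± SD per diet. In Rpl5, Rps6 and Rps3a, control 1 and 4 lie above control 2 and 3, and in Rpl11, Rps24 and Rpl22 the arrays of 1% wakame lie below all those of 0.1%.

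The 2 wakame doses were then compared. The difference itself does not use the control arrays, which enter only the estimate of the spread, but it shares the 1% arrays with the one above. Of the 25 probe sets, 24 lay lower with 1% than with 0.1% wakame, by a median of −0.084 log2, where 51% of all measured probe sets lay lower and their median was −0.004. The count was 24 also with arrays centred or quantile normalized. With limma 0 of 25 passed, as did 0% of all measured probe sets, and the lowest adjusted p among the members was 0.646. At an unadjusted p under 0.05, 4 lay lower (Rps24, Rpl22, Rpl11 and Rpl12) and 0 higher, against 3.06% of all lower. In 8 of 25 members all arrays of 1% wakame lay below all of 0.1%, against 1.94% of all measured probe sets that did so. These 8 were Rpl7, Rpl11, Rpl22, Rpl23, Rpl34, Rpl37a, Rps23 and Rps24, and the gap between the doses was 0.0052 to 0.0754 log2. Rps24 differed by −0.225 ± 0.084 (adjusted p = 0.646), Rpl12 by −0.236 ± 0.102 (0.705), Rpl11 by −0.139 ± 0.058 (0.698) and Rpl22 by −0.111 ± 0.045 (0.698). The count at an unadjusted p under 0.05 was 1 with arrays centred or quantile normalized, 2 with the replicate block and 8 with only the 2 diets in the fit. With 1 array left out it ran from 0 (without low 3) to 5 (without low 1), with 1 without high 1 or high 3 and 2 without high 2 or low 2.

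Against control, 0.1% wakame gave no common direction that held. Of the 25, 18 lay lower, where 55.9% of all measured probe sets did, with a median of −0.013 log2 beside −0.018 over all. The count was 11 with each array centred on its median, 5 without control 1 and 11 without low 1. With limma 0 of 25 passed, against 0.0617% of all, and at an unadjusted p under 0.05 there were 0 lower, against 6.73% of all, and 0 higher. The diets separated with 0.1% lower in 0 of 25, against 3.36%. The members with the smallest unadjusted p were Rpl3 at −0.162 ± 0.118 (adjusted p = 0.675), Rpl5 at −0.096 ± 0.074 (0.688) and Rps3a at −0.082 ± 0.074 (0.739). These values depended on single arrays. Rpl3 was at −0.100 without low 4. Rpl5 was at −0.035 without control 1 and −0.147 without control 2. Rps3a was at −0.029, −0.124, −0.135 and −0.042 without control 1, 2, 3 and 4.

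Large and small subunit members differed between diets by like amounts. Between 1% wakame and control the mean difference was −0.108 log2 over the 18 large subunit probe sets and −0.119 over the 7 of the small subunit, or −0.145 over 6 without Rps4y2. Within each array the large subunit mean minus the small subunit mean depends on how bright the probes are, so only its change between diets is read. It was 0.239, 0.298, 0.333 and 0.292 in control, 0.378, 0.289, 0.279 and 0.284 with 0.1% and 0.242, 0.404, 0.280 and 0.277 with 1% wakame. The diets overlapped, at 0.290 ± 0.039, 0.308 ± 0.047 and 0.301 ± 0.071 (SD, n = 4), and their differences were smaller than these spreads. Without Rps4y2 the means were −0.378 ± 0.045, −0.362 ± 0.028 and −0.342 ± 0.046. Low 1 and high 2 were the highest arrays of their diets, and also those with the lowest Rps4y2 values. Without Rps4y2 they were still the highest of their diets, at −0.334 and −0.277.

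**Figure D4:**
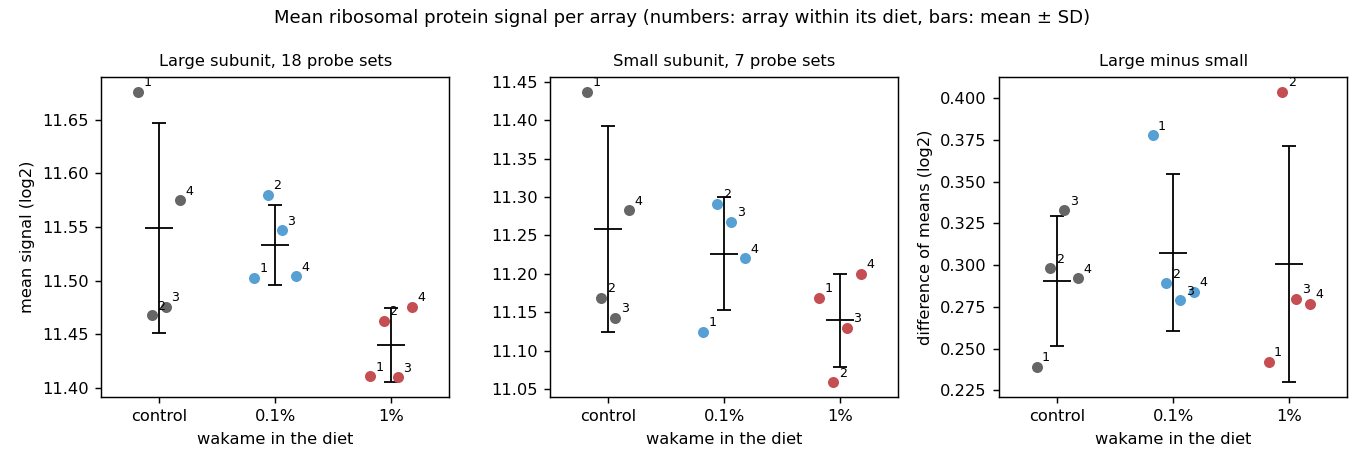
Mean log2 signal over the measured probe sets of the large subunit (18) and small subunit (7), and their difference, for each array (numbered points) with mean ± SD per diet. Both subunit means are highest on control 1 and lie low with 1% wakame, and the difference of the means overlaps among the 3 diets.

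The members varied together from array to array. As each rat had its own array, variation between rats and variation between arrays cannot be told apart. After the mean of each diet was taken out, the 300 pairs of measured probe sets had a median correlation of 0.619 over the 12 arrays, and 98.0% were above 0. Over all pairs of the 3240 measured probe sets the median was 0.003, and 50.3% were above 0. The median was 0.586 within the large subunit, 0.651 within the small and 0.658 between the subunits. These points share their arrays, including control 1, and are a description. Since the members varied together, the counts out of 25 given above do not rest on 25 separate observations. Rps6 followed the mean of the other members most closely, at 0.958, and Rpl22 and Rpl5 at 0.918, while Rpl6 (0.329), both probe sets of Rpl3 (0.446 and 0.475) and Rps4y2 (0.456) followed it least.

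Probe sets listed under several symbols hold further ribosomal proteins that no single name can be given to here. Of 36 such probe sets, 22 were measured, and all 22 lay lower with 1% wakame than with control (median −0.115 log2, range −0.450 to −0.019) and lower than with 0.1% (median −0.088). The mean difference between 1% and control was −0.137, and −0.084 without control 1. With limma 0 passed in either comparison, and 6 and 1 had an unadjusted p under 0.05. Of all measured probe sets, 10.1% and 3.06% lay lower at that unadjusted p, and 55.1% and 51% at any size. Between 0.1% wakame and control 17 of 22 lay lower, beside 55.9% of all measured probe sets, with a median of −0.034. Many ribosomal protein genes have processed copies elsewhere in the genome, so signals of these and of the single-symbol probe sets may include such copies.

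Genes that build or use ribosomes were read from lists. Beside them, 55.1% of all measured probe sets lay lower with 1% wakame than with control, and 10.1% did so at an unadjusted p under 0.05. The shares lower at any size were 55.9% for 0.1% against control and 51% for 1% against 0.1%. Of ribosome assembly factors, 8 of 73 probe sets were measured, all 8 lay lower with 1% wakame than with control (median −0.257 log2) and 0 passed with limma, with 3 at an unadjusted p under 0.05. Rrs1, which helps assemble the 5S particle that holds Rpl5 and Rpl11, was at −0.740 ± 0.171 (adjusted p = 0.0605), and the nucleolar Gnl3 at −0.317 ± 0.122 (0.204). All 8 also lay lower with 1% than with 0.1% (median −0.255), and 3 of 8 lay lower with 0.1% than with control. Of mitochondrial ribosomal proteins, which form a separate ribosome, 19 of 97 probe sets were measured. All 19 lay lower with 1% than with control (median −0.195), 16 with 0.1% than with control and 12 with 1% than with 0.1%. None passed with limma, 2 had an unadjusted p under 0.05 for 1% against control, and Mrpl47 and Mrps22 were at −0.350 ± 0.128 and −0.313 ± 0.121.

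Of initiation factors 10 of 12 measured probe sets lay lower with 1% wakame than with control (median −0.107), with the helicase Eif4a1 at −0.251 ± 0.096 and the scaffold Eif4g1 at −0.476 ± 0.220. All 5 measured probe sets of elongation factors and related genes lay lower (median −0.075). Of the related genes, Eef1e1 was at −0.317 ± 0.160 and Naca at −0.117 ± 0.060. The elongation factor Eef1a1 was at −0.075 ± 0.051 and −0.029 ± 0.043 in its probe sets, and Eef2 at −0.014 ± 0.145. Rack1, which sits on the small subunit, was at −0.068 ± 0.172. In the list of mTOR signalling and translational control 4 of 6 lay lower. Atf4, the factor that the integrated stress response translates, was at −0.495 ± 0.121 (adjusted p = 0.0703), and Deptor, an mTOR inhibitor, at 0.499 ± 0.178 in its brighter probe set and −0.055 in its dimmer one. In this comparison 0 of these passed with limma. An unadjusted p under 0.05 was held by 1, 0, 0 and 2 probe sets. These were counted among initiation factors, elongation factors with related genes, Rack1 and the mTOR list. Of all 3240 measured probe sets, 599 had such a p in either direction.

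Markers of liver cell types were read in the same way. Between 1% wakame and control 4 of 10 measured hepatocyte probe sets lay lower (median 0.012), with Tat at −1.04 ± 0.481 and Cyp2e1 at 0.670 ± 0.354. The mean of the 10 on an array ran from 12.22 to 12.43 in control, 12.43 to 12.60 with 0.1% and 12.12 to 12.48 with 1%. Of Kupffer cell markers 2 of 7 lay lower (median 0.042), with Cd14 at 0.347 ± 0.288 and Csf1r at 0.104 ± 0.167, and the mean of the 7 ran from 8.51 to 9.04, 8.65 to 9.10 and 8.53 to 9.06 in the same order. Of stellate cell markers 0 of 5 lay lower (median 0.215), with Colec11 at 0.215 ± 0.091 and Lum at 0.648 ± 0.308. The mean of these 5 ran from 8.21 to 8.58 in control, 8.03 to 8.63 with 0.1% and 8.24 to 8.81 with 1% wakame. The part of these cell types in the ribosomal differences was not tested. Endothelial and erythroid markers had 3 measured probe sets each, all higher, with Stab2 at 0.122 ± 0.146, Lyve1 at 0.050 ± 0.150, the globin Hba-a3 at 0.370 ± 0.458 and Alas2 at 0.041 ± 0.120. The lymphocyte marker Ptprc was at −0.025 ± 0.178 and no cholangiocyte marker was measured. None of the marker probe sets passed with limma in any of the 3 comparisons. At an unadjusted p under 0.05 were Colec11 for 1% against control, Cyp2e1 (0.902 ± 0.354), Hnf4a (0.226 ± 0.091) and Colec11 (0.219 ± 0.091) for 0.1% against control, and Tat (−1.81 ± 0.481, limma adjusted p = 0.498) for 1% against 0.1%.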

How the data were processed

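The authors deposited 1 table of log2 values with a column per array. The scale was read from the values (3.15 to 14.6). Per the labels' protocols, 100 ng of total RNA was amplified with a 3-prime kit. The submitters' processing notes name R 2.7.2, while for background correction, normalization and summarisation the method is not given. Symbols come from the platform annotation, and 55 of the 57 member gene IDs were found in RefSeq (GRCr8) under the same symbol. Control probe sets (57) were left out.

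Diet means were fitted to all 12 arrays with limma 3.58.1 in R 4.3.3, with a variance trend, on the 3240 probe sets with an SD above 0.01 log2. P-values were adjusted over these by the Benjamini-Hochberg method (threshold 0.05). Differences are in log2 with the SE of the fit. The members and gene lists were chosen with earlier results of these data known. Values in all arrays are given for the 5 members with the smallest unadjusted p in 1% against control, the 3 smallest in each other comparison and the 2 with the largest SD. Each other list is shown by its called genes or else its 2 smallest p, with Eef1a1 and Eef2 given in addition. The fit was tested on simulated data. Arrays have no sequencing depth, and their number limits the precision.

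Alternatives were other SD limits, no limit, no trend, centring, quantile normalization, no dim probe sets, 1 probe set per gene, 2 diets only, a replicate block, each array left out and other member sets.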

Additional observations from a re-analysis of the deposited data

Results flagged for a closer look

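In 81 groups of 4 arrays (the 25 measured probe sets, their mean and the subunit difference, in each diet), 6 held 1 array far from the other 3 by Dixon's criterion, which chance alone gives in about 1 of 20 groups. On control 1, Rpl7a was at 12.42 log2 (the others 12.20 to 12.24) and Rps9 at 12.00 (11.70 to 11.73). On high 4, Rpl26 was at 12.37 (12.26 to 12.27). On high 3, Rpl5 was at 11.83 (11.89 to 11.90), and on high 1, Rpl7 was at 11.67 (11.61 to 11.62). On low 1, the large minus small subunit difference was 0.38 (0.28 to 0.29).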

How the results depend on the processing

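In all 54 other combinations of setting and comparison that were fitted with limma, 0 ribosomal probe sets passed. With all probe sets, where most members are constant, the median ribosomal difference was −2.5e-08 log2 for 1% against control and −1.75e-08 for 1% against 0.1%, and 45, 34 and 45 of 57 members lay lower in 1% against control, 0.1% against control and 1% against 0.1%. At an SD limit of 0.1 these counts were 11, 10 and 11 of 12. For 0.1% against control the count of 18 became 11 with arrays centred on the median, and 5 to 22 with 1 array left out. Rps4y2 (1% against control) ran from −0.026 to 0.14 with 1 array left out. The median for 1% against control ran from −0.126 to −0.052 with 1 array left out, and for 1% against 0.1% from −0.100 to −0.069. The cause of these shifts was not tested, apart from the number of members that a limit leaves.

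Over all measured probe sets, 54 passed for 1% against control, 10 with 1 probe set per gene, 28 with the 2 diets only, 9 with all probe sets, and 7 to 36 with 1 array left out. For 0.1% against control 2 passed, 5 with all probe sets, 1 with centring or quantile normalization, 0 with 1 probe set per gene or the 2 diets only, and 0 to 3 with 1 array left out. For 1% against 0.1% 0 passed, 6 with all probe sets and 0 to 1 with 1 array left out. With the replicate block 12, 0 and 0 passed. The labels give the replicate numbers with no pairing between diets, and deviations of same-numbered arrays correlated at −0.115 to 0.092. Whether a number also stands for shared handling or cage cannot be told from these values. Limiting members to core ribosomal names removed 8 of the 57 members, of which 0 were measured. Leaving out Rps4y2 was chosen after seeing the data. Differences of a few percent in signal lie near the SE of single probe sets at 4 arrays per diet.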
